A study of Saccharomyces cerevisiae with 4 samples.

Results

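The genes described here encode the machinery that brings proteins into the mitochondria of budding yeast. They are a set of 34 named genes, of 5449 *Saccharomyces cerevisiae* genes measured, listed by gene symbol, and each had 1 probe set on the array. Nearly all mitochondrial proteins are made in the cytosol and enter through the TOM complex of the outer membrane. From there the SAM complex inserts barrel-shaped outer membrane proteins, the Mia40 and Erv1 relay traps small proteins between the membranes by giving them disulfide bonds, and small TIM chaperones hand hydrophobic proteins on. Carrier proteins are inserted into the inner membrane by the TIM22 complex. Proteins with a presequence pass the TIM23 complex, are pulled into the matrix by the PAM motor and lose the presequence to the processing peptidase. The superoxide dismutase Sod1 and its copper chaperone Ccs1 are found partly between these membranes, where Ccs1 is a substrate of the Mia40 relay.

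Haploid cells of a strain named FM391 were grown at 30 °C in synthetic medium without leucine to early log phase (OD600 about 0.4). Wild type and *SOD1* deletion cells (sod1Δ) were either left untreated or given 0.4 mM H2O2 for 20 min, with 1 Affymetrix array for each strain and condition. The design text looks for H2O2-induced genes whose induction was reduced without *SOD1*. With 4 arrays and no replicate, no comparison below has a test, every difference compares arrays and not populations of cultures, and a gene is called higher or lower when its log2 signal differed by at least 1, a 2-fold difference. The *SOD1* transcript was at 14.21 and 14.31 without and with H2O2 in wild type and at 2.40 and 2.42 in sod1Δ, as the labels say, where 2.31 is the background floor, taken from probe sets of another yeast. All 34 import genes lay far above that floor on all 4 arrays, from 6.75 to 13.03.

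As a yardstick for the signal alone, pairs of probe sets that measure the same gene differed in the wild type response with an SD of 0.51 per probe set (41 genes). In sod1Δ the response had an SD of 0.59. Strain differences had an SD of 0.31 without and 0.45 with H2O2, and the difference of the responses one of 0.45. Values called inside the spread below are smaller than this SD, which large disagreements of a few pairs raise. The median absolute difference between 2 probe sets of a gene was 0.24 in the wild type response and 0.37 in sod1Δ. For the difference of responses it was 0.16. Past 2-fold were 8 of 41 pairs in the wild type response and 3 of 42 in the difference of responses. The yardstick covers disagreement of probe sets on the same arrays and not variation between cultures.

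In wild type most import genes had an H2O2 response below 0, and few of them passed 2-fold. It was below 0 for 26 of 34 genes, with a median of -0.54, where the median of all 5358 genes tested was -0.03 and 51.8% of them were below 0. The 7 genes at least 2-fold lower were *TOM5*, *TOM6* and *TOM71* of the entry complex, *PAM16*, *PAM17* and *PAM18* of the import motor, and *TIM23*. The processing peptidase gene *MAS1* and the disulfide relay gene *MIA40* were the only members at least 2-fold higher. Past 2-fold, 7 of 34 (20.6%) were lower and 2 (5.88%) higher, where 16.1% of all genes tested were lower and 17.1% higher. Among the 3914 genes whose mean level lay in the range of the members (7.47 to 12.83) the shares were 15.2% and 15.6%. The share of members lower is near these. At a smaller threshold of 1.5-fold, 14 of 34 (41.2%) were lower, against 26.2% of all genes, and 3 (8.82%) were higher, against 25.9%.

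**Figure D1:**
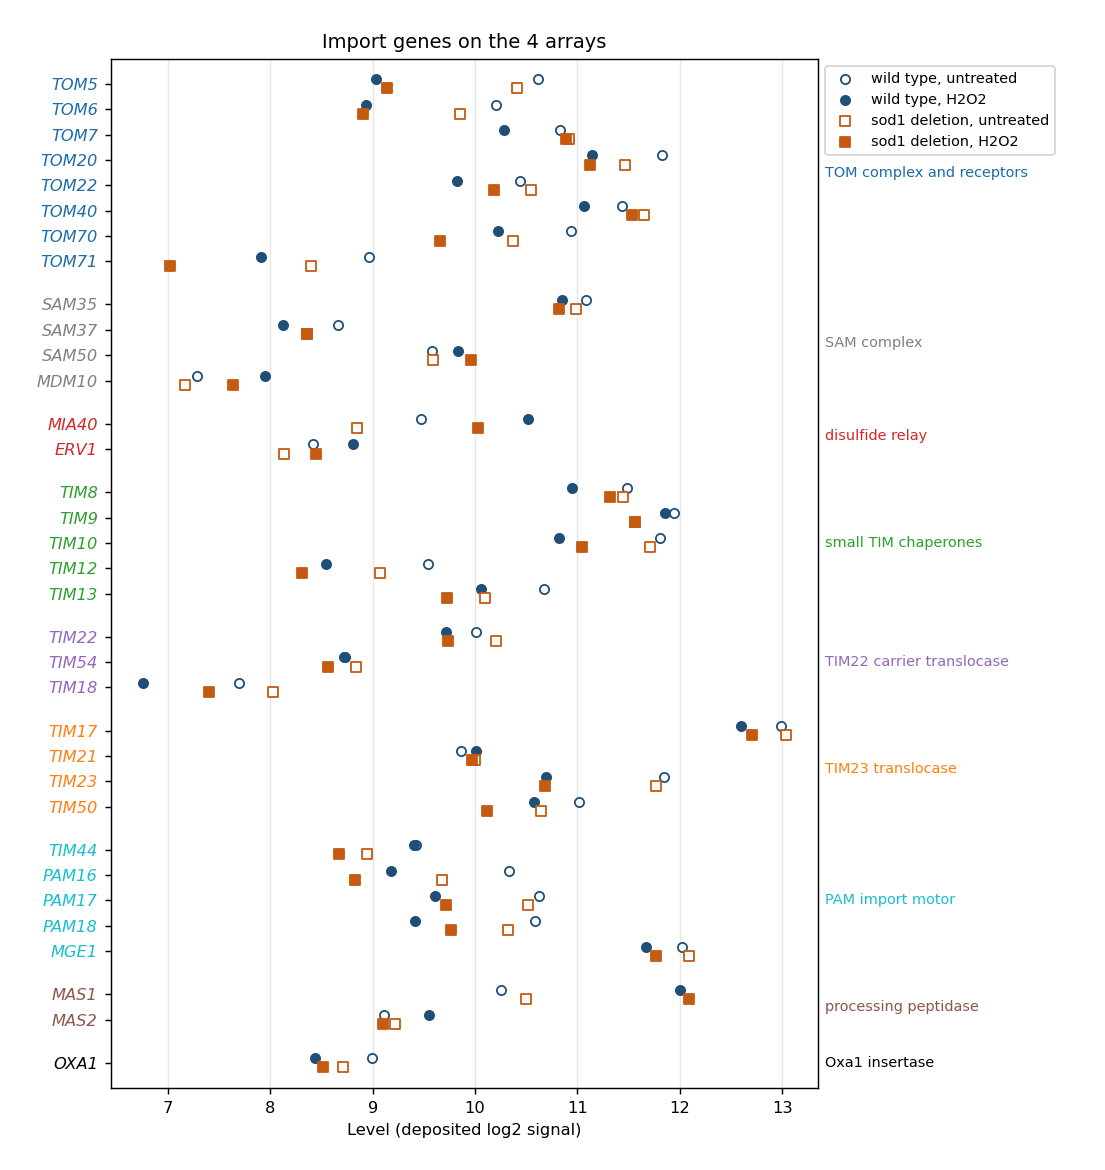
Deposited log2 signal (horizontal axis) of the 34 import genes, grouped by role, on the 4 arrays: circles are wild type and squares sod1Δ, open untreated and filled after H2O2, each point being 1 array with no error. Filled symbols lie left of open ones for most TOM and PAM genes and right of them for *MAS1*, *MIA40*, *ERV1*, *SAM50* and *MDM10*; the open square of *TIM9* and *SAM37* is hidden by the filled one.

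The outer membrane entry gate had the lowest single response. *TOM5*, encoding a small subunit that passes precursors to the channel, was at 10.61 and 9.04 without and with H2O2 in wild type, and at 10.41 and 9.14 in sod1Δ. Both treated arrays were below both untreated arrays, by 2.98-fold in wild type (-1.58) and 2.41-fold in sod1Δ (-1.27). In wild type 9.03% of all genes tested had a lower value. *TOM6*, another small subunit that steadies the complex, was at 10.21 and 8.94 without and with H2O2 in wild type and at 9.85 and 8.90 in sod1Δ. It was 2.41-fold lower after H2O2 in wild type (-1.27) and, at -0.95, just short of 2-fold in sod1Δ. The third small subunit, *TOM7*, differed from them in sod1Δ. It was at 10.83 and 10.28 in wild type and at 10.92 and 10.88 in sod1Δ, a response of -0.03 in the mutant beside -0.55 in wild type.

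*TOM40*, the gene of the channel itself, was at 11.43 and 11.07 without and with H2O2 in wild type and at 11.65 and 11.53 in sod1Δ. Its responses, -0.37 and -0.12, were inside the spread between probe sets of a gene. The receptor genes *TOM20* and *TOM22*, whose products bind presequences, had responses of -0.68 and -0.62 in wild type and -0.35 and -0.37 in sod1Δ. All 8 genes of the TOM complex and its receptors were below 0 in both strains, with medians of -0.70 and -0.54.

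*TOM70* and *TOM71* encode related receptors, Tom70 being the main docking site for carrier proteins that arrive with cytosolic chaperones. *TOM70* was at 10.93 and 10.22 without and with H2O2 in wild type and at 10.37 and 9.66 in sod1Δ. Its response was the same size in both strains, -0.71 and -0.72, and its level in sod1Δ was below that in wild type by 0.56 in either condition. *TOM71* was at 8.96 and 7.91 in wild type and at 8.40 and 7.02 in sod1Δ. It was 2.07-fold lower after H2O2 in wild type (-1.05) and 2.60-fold lower in sod1Δ (-1.38), the lowest response of any member in the mutant. With 32 added to the linear signal, which damps dimmer genes, the wild type value was -0.96 and no longer past 2-fold.

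The genes of the SAM complex had responses of either sign. *SAM50*, which encodes the channel that inserts barrel proteins, was at 9.57 and 9.83 without and with H2O2 in wild type and at 9.59 and 9.96 in sod1Δ, higher after H2O2 by 0.25 and 0.37. *MDM10*, whose product works in SAM and in the tether between mitochondria and endoplasmic reticulum, was at 7.28 and 7.95 in wild type and at 7.16 and 7.63 in sod1Δ. Its wild type response of 0.66 was past 1.5-fold, and that in sod1Δ was 0.47. The genes of the cytosol-facing subunits were at or below 0, *SAM35* at -0.23 and -0.17, and *SAM37* at -0.54 in wild type and 0.00 in sod1Δ to the second decimal. None of the 4 SAM genes passed 2-fold in either strain.

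Both disulfide relay genes had positive responses in both strains, past 2-fold for 1 of them. *MIA40*, encoding the oxidoreductase that forms disulfide bonds in incoming proteins, was at 9.47 without and 10.51 with H2O2 in wild type, and at 8.85 and 10.03 in sod1Δ. It was 2.06-fold higher in wild type (1.04) and 2.27-fold higher in sod1Δ (1.18), and 88.2% of all genes tested had a lower response in sod1Δ. *ERV1*, encoding the sulfhydryl oxidase that reoxidises Mia40, was at 8.42 and 8.81 in wild type and at 8.13 and 8.44 in sod1Δ. Its responses of 0.39 and 0.31 had the same direction as those of *MIA40* but were inside the spread between probe sets. The strain difference, sod1Δ minus wild type, was below 0 for both genes in each condition and short of 2-fold. It was -0.62 untreated and -0.48 treated for *MIA40*, and -0.29 and -0.37 for *ERV1*, the latter inside the spread between probe sets. Of all genes tested, 57.7% untreated and 55% treated were below 0.

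The small TIM chaperones, which are themselves substrates of that relay, had responses of the opposite sign in wild type. All 5 were below 0 in the wild type response, with a median of -0.62. *TIM10*, whose product forms a ring with Tim9, was at 11.80 and 10.82 without and with H2O2 in wild type and at 11.70 and 11.04 in sod1Δ. Its partner gene *TIM9* was at 11.95 and 11.86 in wild type and at 11.56 on both arrays of sod1Δ. Thus the wild type response of *TIM10* was -0.99, just short of 2-fold, and that of *TIM9* was -0.09. *TIM12*, encoding the form that docks this ring on the TIM22 complex, was at 9.54 and 8.54 in wild type and at 9.07 and 8.31 in sod1Δ. Its response of -0.998 in wild type lay at the threshold, and after quantile normalization it was past it at -1.05. *TIM8* and *TIM13*, which encode the other chaperone ring, had responses of -0.53 and -0.62 in wild type and -0.13 and -0.38 in sod1Δ. All 5 responses were nearer to 0 or above it in sod1Δ, by 0.090 (*TIM9*) to 0.40 (*TIM8*), differences inside the spread between probe sets.

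Of the TIM22 carrier translocase, *TIM22* encodes the channel. It was at 10.01 and 9.72 without and with H2O2 in wild type and at 10.21 and 9.74 in sod1Δ, with responses of -0.29 and -0.47. *TIM18*, a membrane subunit gene, was at 7.69 and 6.75 in wild type, the lowest level of any member on any array, and at 8.03 and 7.40 in sod1Δ. Its wild type response was -0.94, and -1.04 after quantile normalization. *TIM54*, encoding a subunit exposed between the membranes, had the smallest wild type response of all members at 0.01, and -0.28 in sod1Δ.

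The TIM23 translocase was split between its core genes. *TIM23*, encoding the presequence channel subunit, was at 11.85 and 10.69 without and with H2O2 in wild type and at 11.77 and 10.68 in sod1Δ. The strains differed by -0.08 without and -0.01 with H2O2, and the treated arrays were lower by 2.23-fold in wild type (-1.16) and 2.13-fold in sod1Δ (-1.09). *TIM17*, encoding the related core subunit, was the brightest member, at 12.99 and 12.60 in wild type and 13.03 and 12.71 in sod1Δ. Its responses were -0.40 and -0.33. The receptor gene *TIM50* had responses of -0.44 and -0.52, and *TIM21*, whose product links the complex to respiratory chain complexes, had 0.15 and -0.03.

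The import motor genes of the J-protein pair had responses below 0 in both strains, past 2-fold in wild type only. *PAM18* encodes the J protein that stimulates the mitochondrial Hsp70, and *PAM16* its regulating partner. *PAM18* was at 10.58 and 9.42 without and with H2O2 in wild type and at 10.32 and 9.77 in sod1Δ, 2.25-fold lower in wild type (-1.17) and 1.47-fold lower in sod1Δ (-0.55). *PAM16* was at 10.33 and 9.18 in wild type and at 9.67 and 8.83 in sod1Δ, with responses of -1.16 and -0.84. Each pair of treated arrays was below the untreated ones, and the response in sod1Δ was the smaller for both genes.

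*PAM17*, encoding a subunit that supports the pair, was at 10.62 and 9.61 in wild type and at 10.51 and 9.72 in sod1Δ. Its wild type response of -1.01 was barely past 2-fold and fell short under 3 alternatives, at -0.99 after quantile normalization, -0.97 after centring each array on its median and -0.98 with 32 added. *TIM44*, the gene of the tether that holds the motor at the channel, was at 9.42 and 9.41 in wild type and at 8.95 and 8.67 in sod1Δ. It was thus at the same level on the wild type arrays and lower on both mutant arrays. *MGE1*, encoding the nucleotide exchange factor of the Hsp70, had responses of -0.35 and -0.32.

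The processing peptidase removes presequences and is made of a catalytic subunit encoded by *MAS1* and a partner encoded by *MAS2*. *MAS1* was at 10.25 without and 12.00 with H2O2 in wild type, and at 10.49 and 12.09 in sod1Δ. The treated arrays were far above the untreated ones, by 3.36-fold in wild type (1.75) and 3.03-fold in sod1Δ (1.60), and 92.2% of all genes tested had a lower response in either strain. *MAS2* was at 9.11 and 9.55 in wild type and at 9.22 and 9.10 in sod1Δ. Its responses were 0.44 and -0.12, both inside the spread between probe sets of a gene. In the mutant the level of *MAS1* was thus higher after H2O2 and that of *MAS2* was not. *OXA1*, the gene of the insertase that places proteins into the inner membrane from the matrix, had responses of -0.56 and -0.20.

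**Figure D2:**
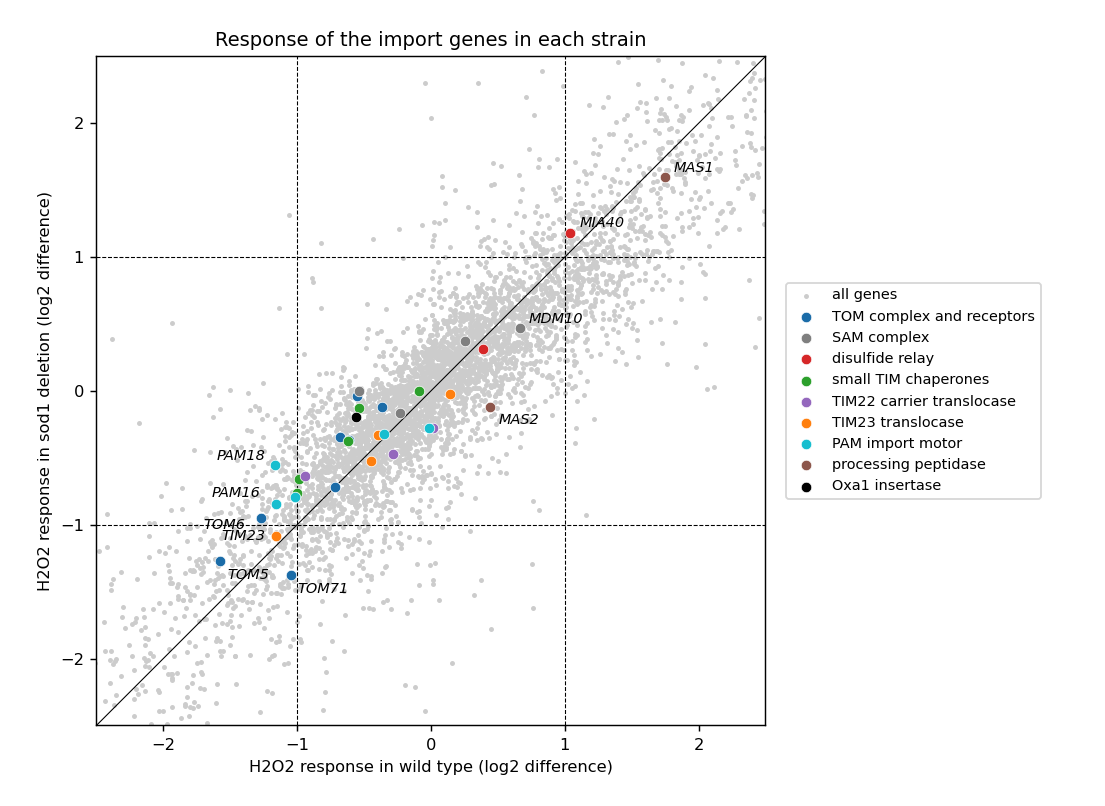
H2O2 response (treated minus untreated, log2 difference) in wild type (horizontal) and sod1Δ (vertical) for the 34 import genes, coloured by role, over all genes in grey; dashed lines mark 2-fold, the solid line equal responses, and grey genes beyond 2.5 on either axis are outside the frame. *MAS1* (1.75 and 1.60) and *MIA40* (1.04 and 1.18) lie past 2-fold in both strains, as do *TOM5*, *TIM23* and *TOM71* on the lower side.

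In sod1Δ the response was smaller for most of the genes. It was below 0 for 28 of 34 genes (82.4%), against 51.8% of all 5341 genes tested. The median was -0.32, beside -0.03 for all genes. Past 2-fold, *TOM5*, *TOM71* and *TIM23* were lower, 3 of 34 (8.82%), and *MAS1* and *MIA40* higher (5.88%), where 15.8% of all genes were lower and 14.6% higher. Past 1.5-fold 10 of 34 (29.4%) were lower, against 25.3% of all genes, and 2 were higher, against 23.7%. Across the 34 genes the responses of the strains, which come from separate pairs of arrays, had a Pearson correlation of 0.92 (Spearman 0.88), which over all 5365 genes tested was 0.92 (0.91). Genes are not independent replicates, and the points share the normalization of 4 arrays. The treated arrays of both strains lay below both untreated arrays for 22 of 34 members (64.7%), where 38.2% of all genes tested did so, and above them for 5 (14.7%), *SAM50*, *MDM10*, *MIA40*, *ERV1* and *MAS1*, where 34.2% did.

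The size of the response was set between the strains by subtracting the wild type value from the sod1Δ value. No member passed 2-fold in this difference, where 2.67% of all 5365 genes tested were past it on the higher side and 4.03% on the lower side. The response was nearer to 0 in sod1Δ for 26 of 34 members (76.5%), and for 55.8% of all genes tested. The median difference was 0.13, beside -0.02 over all genes. The single member past 1.5-fold was *PAM18* at 0.62 (2.94% of members, against 7.18% of all genes higher and 11.5% lower). It was followed by *SAM37* at 0.54 and *TOM7* at 0.52, and *MAS2* had the lowest value at -0.56. Only these 4 differences exceeded the SD of 0.45 between probe sets of a gene, and the share of all genes that did so is not given here.

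The design text defines attenuation as a loss of more than 50% of the induction. Of the 2 import genes induced at least 2-fold in wild type, neither met it. The fold of *MAS1* in sod1Δ was 90.1% of that in wild type, and that of *MIA40* was 110% of it. The share of all 915 genes at least 2-fold higher in wild type that met it is not given here. The 2 values are therefore a description and not a trait of the import genes. *CCS1*, the gene of a relay substrate, was at 10.98 and 12.35 without and with H2O2 in wild type and at 10.94 and 12.14 in sod1Δ. This gene was added after its values were seen. The small TIM chaperones, also relay substrates, had median responses of -0.62 in wild type and -0.38 in sod1Δ.

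Between the untreated strains no import gene differed 2-fold, where 3.71% of all 5344 genes tested were higher in sod1Δ and 3.18% lower. The median over the 34 genes was -0.11, beside -0.07 over all genes. Among the genes in the members' range of level, 3.63% were higher and 1.43% lower. Past 1.5-fold, *PAM16* (-0.66) and *MIA40* (-0.62) were lower in sod1Δ, 2 of 34 (5.88%) against 10.2% of all genes, and 0 were higher, against 8.61%. *TIM13* (-0.58), *TOM71* and *TOM70* (both -0.56) came next. The highest value was that of *TIM18* at 0.34.

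After H2O2 no import gene differed 2-fold between the strains either, where 3.07% of all 5341 genes tested were higher and 6.33% lower. Among genes in the members' range of level these shares were 2.32% and 3.19%. The median was -0.02, beside -0.05 over all genes. *TOM71* (-0.89) and *TIM44* (-0.73) were past 1.5-fold on the lower side, 2 of 34 against 15.1% of all genes, and *TIM18* (0.64) and *TOM7* (0.61) on the higher side, against 9.02%. Short of 1.5-fold, *TOM70* (-0.56), *MIA40* (-0.48) and *MAS2* (-0.46) came next on the lower side, and *TOM40* (0.46) on the higher side. Both sod1Δ arrays were below both wild type arrays for *TIM9* and *TIM44*, and above both for *TOM7* and *TOM40*, 2 of 34 each (5.88%), where 13.8% and 10.1% of all genes tested were so placed. The 2 strain comparisons and the difference of responses share arrays, so their values are given side by side and not as support for each other.

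**Figure D3:**
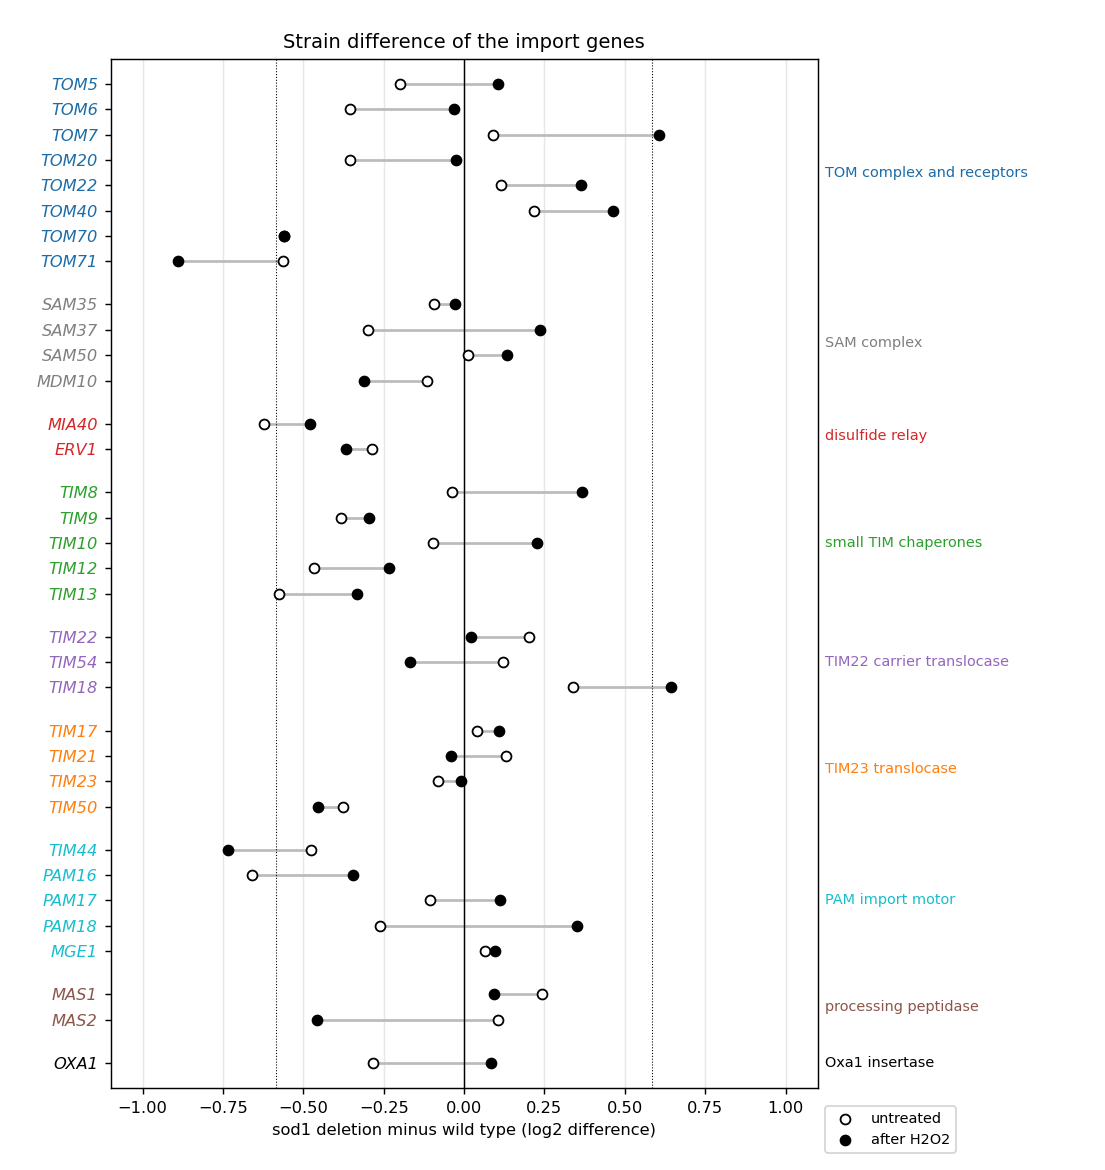
Strain difference (sod1Δ minus wild type, log2 difference) of the 34 import genes, open circles untreated and filled circles after H2O2, joined by a line for each gene; dotted lines mark 1.5-fold. *TOM70*, *TOM71*, *MIA40*, *ERV1*, *TIM50* and *TIM44* are among the genes below 0 in both conditions, and *TOM7*, *TIM18* and *TOM40* among those above 0 in both.

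A wider list of 54 genes of import, its chaperones, peptidases and quality control was set beside the 34. Its wild type response had a median of 0.19, with 12 of 54 genes at least 2-fold higher (22.2%, against 17.1% of all genes) and 5 lower (9.26%, against 16.1%). The largest was that of *CIS1*, whose product acts in the response to clogged import pores, at 2.97 and 6.88 without and with H2O2 in wild type and at 2.49 and 6.71 in sod1Δ. Its untreated levels were near the floor of 2.31. The cytochrome c gene *CYC1*, whose product takes electrons from Erv1, was at 8.52 and 11.72 in wild type and at 6.90 and 10.84 in sod1Δ. The outer membrane protein gene *OM45* was at 8.48 and 11.35 in wild type and at 9.35 and 11.59 in sod1Δ. *HSP78*, encoding the matrix disaggregase, was at 9.75 and 11.91 in wild type and at 10.30 and 12.08 in sod1Δ. These 4 genes were the highest of the list in both strains.

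In sod1Δ the wider list had 8 of 54 genes at least 2-fold higher (14.8%, against 14.6% of all genes) and 1 lower (1.85%, against 15.8%), with a median of 0.14. Between the untreated strains 3 of its genes (5.56%, against 3.18% of all genes) were at least 2-fold lower in sod1Δ and 0 higher: *CYC1* (-1.62), *ECM10* (-1.36), which encodes a minor relative of the motor Hsp70, and the J-protein gene *MDJ2* (-1.19). After H2O2 *ECM10* (-1.70) and *JAC1* (-1.14), a J-protein gene of iron-sulfur cluster assembly, were lower (3.7%, against 6.33%). The main motor Hsp70 gene *SSC1* was at 12.71 and 12.38 without and with H2O2 in wild type and at 12.78 and 12.66 in sod1Δ.

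Some traits of the import genes were also seen in other genes of mitochondrial biogenesis. Genes of mitochondrial ribosomal proteins were taken by symbol, MRPL, MRPS or RSM followed by a number, and those with other symbols were not included. The 54 genes so taken had a median wild type response of -0.38, with 2 lower past 2-fold (3.7%, against 16.1% of all genes). In sod1Δ the median was -0.17, with 1 lower (1.85%, against 15.8%). The 38 genes of the respiratory chain and ATP synthase had medians of 0.16 and 0.15, with 6 higher (15.8%) and 0 lower past 2-fold in each strain, where 17.1% of all genes were higher in wild type and 14.6% in sod1Δ. *CYC1* is in this list and also in the wider import list. Between the untreated strains the medians were -0.30 for the mitochondrial ribosome and 0.35 for the respiratory list, and -0.11 for the import genes. After H2O2 they were -0.17, 0.40 and -0.02. The wild type response was below 0 for 75.9% of the mitochondrial ribosome list, 42.1% of the respiratory list and 76.5% of the import genes. Past 1.5-fold, 35.2%, 5.26% and 41.2% were lower. The difference of responses had medians of 0.21, 0.16 and 0.13, with 81.5%, 73.7% and 67.6% of the genes above 0. A smaller lowering in the mutant was thus also seen in the mitochondrial ribosome list, with response medians of -0.38 and -0.17. The respiratory list had response medians above 0 in both strains, at 0.16 and 0.15, so as a list it was not lowered. The differences between these lists were not tested, and their values are given as a description.

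**Figure D4:**
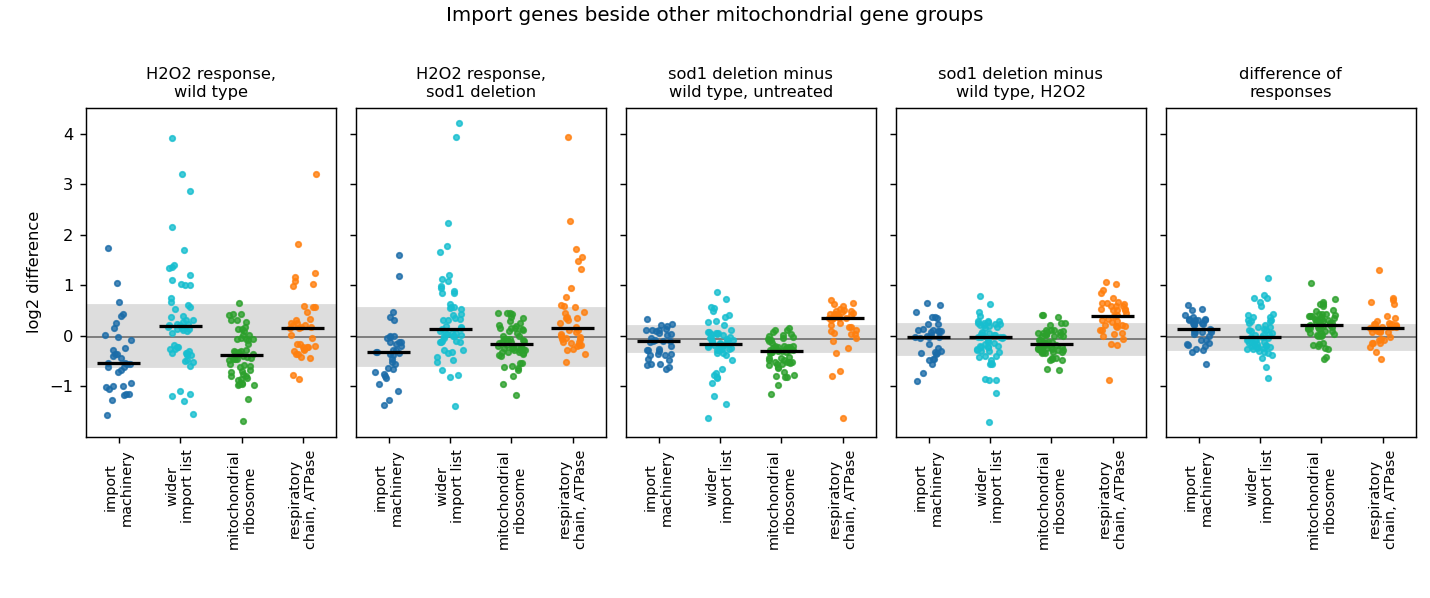
Log2 differences (vertical axis) in the 5 comparisons for the 34 import genes, the wider import list, mitochondrial ribosomal protein genes and respiratory chain and ATP synthase genes; points are genes, black bars medians, and the grey line and band the median and quartiles of all genes tested. The import genes had medians of -0.54 and -0.32 in the H2O2 responses and -0.11 and -0.02 between the strains. *CYC1* is a point of both the wider import list and the respiratory list.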

How the data were processed

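Total RNA of 4 samples was hybridised to 4 Affymetrix arrays that carry probe sets of *S. cerevisiae* and *Schizosaccharomyces pombe*, after amplification of 50 ng of RNA and biotin labelling per the labels' protocols. The authors deposited log2 signals per probe set, made with GCRMA per the submitters' processing notes. GCRMA subtracts a background modelled from probe sequence and normalises between arrays; which version and settings were used is not given in the sources used here. Arrays give no counting depth, and their number limits the precision.

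Of 10928 probe sets, 5498 named 1 *S. cerevisiae* gene in GEO's platform annotation, 1746 named *S. pombe* genes, 1 several genes and 3683 none. Symbols were updated by gene identifier (12 changed), and probe sets were averaged per gene (5449 genes). The floor was the 95th percentile of the *S. pombe* probe sets, 2.31, and a gene entered a comparison (counted as tested) when its brightest array in it was above the floor. No member overlapped another gene of the RefSeq table. With 1 array per group the pairwise comparisons and the difference of responses have no residual degrees of freedom and no test, and genes were counted past 2-fold and 1.5-fold. An additive model over the 4 arrays, which takes the responses as equal, was not run.

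Members and lists were chosen with earlier results of these data known. Members were named with their level on each array when past 2-fold in a comparison, extreme in their role group, or part of the relay, the receptor pair or the channels, and wider list genes past 2-fold, up to 4 per comparison; *CCS1* and *SSC1* were added after their values were seen. The planned promoter search was not run. Steps were tested on simulated data. Python 3.11.15, numpy 2.4.6, pandas 2.3.3 and matplotlib 3.10.9 were used.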

Additional observations from a re-analysis of the deposited data

Results flagged for a closer look

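For 4 import genes the arrays moved in opposite directions with H2O2 in the strains, which was not tested. That is 11.8% of the members, beside 11.1% of all 5365 genes tested, so the count is near that of all genes. The response of sod1Δ minus that of wild type was -0.56 for *MAS2* (0.44 in wild type and -0.12 in sod1Δ), -0.29 for *TIM54* (0.01 and -0.28), -0.17 for *TIM21* (0.15 and -0.03) and 0.090 for *TIM9* (-0.09 and 0.00). That of *MAS2* exceeded the SD of 0.45 between probe sets of a gene, and the other 3 did not. The response of each of the 4 genes within a strain was inside the spread (SD 0.51 in wild type and 0.59 in sod1Δ), also for *MAS2*. After quantile normalization or centring, *SAM37* and *TIM44* joined them, which made 6.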

How the results depend on the processing

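The counts past 2-fold and the medians of the 34 import genes were recomputed for all 5 comparisons after quantile normalization, after centring each array on its median, with the brightest probe set, with 32 added to the linear signal, with no floor and with a floor at 5. No median changed sign or moved by 0.1 or more, and no count past 2-fold moved by over 1.5 times. Counts past 1.5-fold were less stable. After quantile normalization 4 genes in place of 2 were lower in untreated sod1Δ, 1 in place of 2 was higher in treated sod1Δ and 2 in place of 1 had a higher response in sod1Δ. After centring these were 1 lower in untreated sod1Δ, and 0 higher and 1 lower in the response. With 32 added 1 gene in place of 2 was higher in treated sod1Δ. The cause was not tested. The brightest probe set and both floors left all member values as they were, since each member had 1 probe set and lay above them. No paired analysis was possible because each group had 1 array.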
